A study of Mus musculus with 12 samples.

Results

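The interferon regulatory factor (IRF) genes are followed here through the formation of neutrophils in mouse bone marrow. The members were taken by gene symbol, as Irf1, Irf2, Irf3, Irf4, Irf5, Irf7, Irf8 and Irf9, with no use of their measured values. Each was represented by the array row of that single symbol with the highest mean, and 8 of 8 were found among the 19937 genes tested. Messenger RNA from bone marrow cells of untreated C57BL/6 mice had been measured on Affymetrix Mouse Gene 1.0 ST arrays, which give 1 brightness value for each gene. LSK cells, named for the absence of lineage antigens and the presence of Sca1 and cKit, contain stem cells and early progenitors, and promyelocytes, myelocytes and granulocytes are the 3 successive stages that follow. Each of these 4 populations was isolated by fluorescence-activated cell sorting without further culture. Each had 3 arrays, labelled as biological replicates, 12 arrays in all. Sorting by surface antigens leaves some other cells in each population, and whether an array came from 1 mouse or from several was not given in the sources used here. The age of the mice was likewise not given.

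IRF proteins are transcription factors that share a DNA-binding domain with a conserved set of tryptophans, and they recognise repeats of the letters GAAA in promoters of interferon and interferon-induced genes. Irf3, Irf5 and Irf7 act downstream of the receptors that sense microbial nucleic acids, and Irf9 joins Stat proteins in the complex that answers type I interferon. Irf1 is an activator of interferon-induced genes and Irf2 binds the same sites and often opposes it. Irf8 and its close relative Irf4 are factors of blood cell development. In the mouse, Irf8 is needed for monocytes and dendritic cells, and mice without it accumulate granulocytes.

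The promoters of the members were searched for the letters of 2 elements, since these proteins can act on genes of their own family. The first was GAAANNGAA, a pair of the cores that IRF proteins bind, and the second was TTCNNNGAA, the element bound by Stat proteins; both strands were read, and the letters of the 2 elements can overlap. RefSeq windows of 300 bases, running from 250 bases before a transcription start to 50 bases after it (build GRCm38.p6), were found for 8 of 8 members, which have 11 windows because some have several starts. The IRF letters were in 1 of the 8 members, Irf2, and in 9.76% of 27025 genes in the same table. The Stat letters were in 3 of the 8, Irf1, Irf2 and Irf8, and in 9.55% of all genes. Capitals mark the matches in the following stretches, which come from every window of a member that held a match.
Irf2, chr8:46739495-46739539, plus strand: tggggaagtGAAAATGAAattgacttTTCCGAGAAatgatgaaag
Irf1, chr11:53769914-53769942, plus strand: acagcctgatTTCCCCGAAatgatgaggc
Irf8, chr8:120736177-120736223, plus strand: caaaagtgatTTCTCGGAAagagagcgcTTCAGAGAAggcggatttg
Counted from the transcription start, the IRF letters in Irf2 ran from -241 to -233 and the Stat letters from -224 to -216, so the matches did not overlap. The Irf8 stretch held 2 Stat matches, and the match in Irf1 ran from -90 to -82. No match in the windows of Irf3, Irf4, Irf5, Irf7 and Irf9 says only that these letters are not in those bases, and no match was tested for binding.

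The labels were checked against marker genes of each stage. The LSK list (Kit, Flt3, Hlf and others, 8 measured) had a mean log2 level of 8.92 to 9.52 on the LSK arrays, and of 5.12 to 5.18 on the granulocyte arrays. The list of promyelocyte markers was highest on promyelocyte arrays (10.5 to 10.9), the myelocyte list on myelocyte arrays (12.7 to 12.8) and the granulocyte list on granulocyte arrays (12.0 to 12.2). The myelocyte list was nearly as high on the granulocyte arrays (12.4 to 12.6), so it hardly separated these 2 stages. Some arrays stood apart within their group. LSK array 3 had a promyelocyte marker mean of 7.50, against 9.26 and 9.77 on LSK arrays 1 and 2. Promyelocyte array 2 had an eosinophil marker mean of 5.39, against 7.75 and 8.16 on the other two promyelocyte arrays. Basophil and mast cell markers averaged 9.88, 8.64 and 7.52 on the 3 myelocyte arrays. The rise of Irf8 in promyelocytes is given with and without LSK array 3 and promyelocyte array 2. For the members, calls that were lost when any single array was left out are named.

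In what follows a gene is said to have risen or fallen at a later stage where the Benjamini-Hochberg adjusted p of limma's moderated test over all genes was under 0.05 and the difference was at least 2-fold, that is 1 on the log2 scale. Levels are log2 values, comparable between stages for 1 gene and not between genes, and n = 3 arrays per stage throughout. A level at or under 4.51, below which 95% of olfactory and vomeronasal receptor genes lay, is called dim, and no fold is given from it. By the moderated F test 6 of the 8 members differed among the 4 stages, as did 54% of all genes, and Irf3 (adjusted p = 0.307) and Irf4 (adjusted p = 0.126) did not pass.

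**Figure D1:**
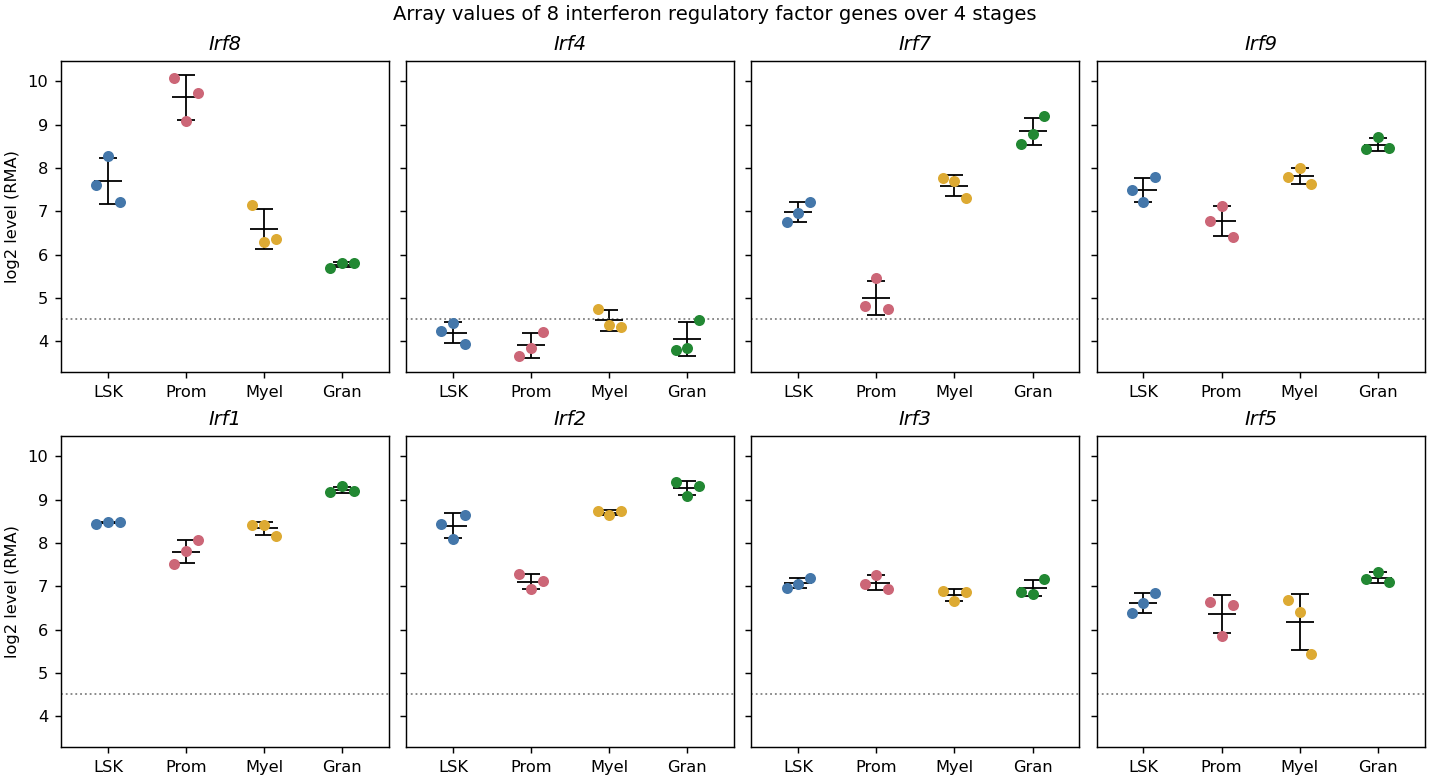
Log2 level (vertical axis) of each IRF gene on the 12 arrays, by stage (Prom, promyelocytes; Myel, myelocytes; Gran, granulocytes). Points are arrays, black bars give the mean and SD of 3 arrays, the dotted line is the dim level of 4.51, and levels can be compared within a panel only. Irf8 peaked in promyelocytes at 9.63, where Irf7 was lowest at 5.00.

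Irf8 was the 1 member called higher in promyelocytes than in LSK cells. It measured 7.61, 8.28 and 7.22 on the LSK arrays, 10.08, 9.07 and 9.73 on the promyelocyte arrays, 7.13, 6.29 and 6.36 on the myelocyte arrays and 5.69, 5.80 and 5.81 on the granulocyte arrays. Every promyelocyte array lay above every other array, and every granulocyte array lay below every other array. The means were 7.70 ± 0.54 in LSK cells, 9.63 ± 0.51 in promyelocytes, 6.59 ± 0.47 in myelocytes and 5.77 ± 0.06 in granulocytes (SD). Irf8 thus rose by 1.92 ± 0.29 in promyelocytes relative to LSK cells (SE, 3.79-fold, limma adjusted p = 0.000363). It fell by 3.03 ± 0.29 in myelocytes relative to promyelocytes (8.19-fold, adjusted p = 4.72e-07). In bulk samples such as these, fewer cells of a type and less RNA per cell cannot be told apart. Between granulocytes and myelocytes the difference of -0.83 ± 0.29 did not pass (adjusted p = 0.0507), although the 3 arrays of each stage did not overlap.

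Set against LSK cells, Irf8 fell by 1.94 ± 0.29 in granulocytes (3.83-fold, adjusted p = 2.9e-05) and by 1.11 ± 0.29 in myelocytes (2.16-fold, adjusted p = 0.00555). The call in myelocytes was lost without LSK array 2 (-0.82), myelocyte array 2 (-0.96) or myelocyte array 3 (-0.99). Over the whole path from promyelocyte to granulocyte Irf8 fell by 3.86 ± 0.29 (14.5-fold, adjusted p = 1.44e-08). The span between its highest and lowest stage exceeded that of 97.8% of all genes. Without LSK array 3 the rise in promyelocytes was 1.68, and without promyelocyte array 2 it was 2.20.

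Markers of other cells also differed between the stages. Of 11 measured monocyte and macrophage markers, 8 rose in promyelocytes relative to LSK cells (list median 1.60, median of all genes 0.04), beside 1.61% of all genes. In myelocytes relative to promyelocytes, where Irf8 fell, 1 of the 11 rose, 3 fell and 7 were not called (list median -0.24). Over all genes 7.61% were higher and 9.87% lower at that step. Ly86, a surface partner of a Toll-like receptor homologue, averaged 9.63 in promyelocytes and 7.59 in LSK cells, and F13a1, the factor XIII subunit of monocytes, averaged 10.8 in promyelocytes and 7.75 in LSK cells. The mean of the list was 6.71, 7.04 and 6.02 on the LSK arrays, 8.53, 7.81 and 7.91 on the promyelocyte arrays, 8.22, 7.64 and 6.94 on the myelocyte arrays and 6.96, 7.20 and 6.95 on the granulocyte arrays. Irf8 was highest in its stage on LSK array 2, promyelocyte array 1 and myelocyte array 1, and the monocyte list was highest on those same arrays. In granulocytes Irf8 was highest on array 3 and the list on array 2. The promyelocyte marker list was also highest on LSK array 2 (9.77) and promyelocyte array 1 (10.9), but on myelocyte array 3 (8.34). Its median over the arrays was 9.26 in LSK cells, 10.8 in promyelocytes, 8.22 in myelocytes and 6.48 in granulocytes. That is the order of stages of Irf8. In granulocytes relative to promyelocytes, 6 of the 11 monocyte and macrophage markers fell and 3 rose (list median -1.11). Over all genes 16.3% were lower and 10.1% higher. Not every marker fell with Irf8, as Csf1r, the receptor for macrophage colony-stimulating factor, averaged 9.26 in granulocytes and 8.91 in promyelocytes. Basophil and mast cell markers averaged 5.54, 5.64 and 5.07 on the LSK arrays and 8.09, 6.60 and 7.10 on the promyelocyte arrays. They averaged 9.88, 8.64 and 7.52 on the myelocyte arrays and 5.10, 5.40 and 5.21 on the granulocyte arrays. Like Irf8, this list was highest in its stage on LSK array 2, promyelocyte array 1 and myelocyte array 1. Between stages it was highest in myelocytes, where Irf8 was lower than in promyelocytes. Of 7 measured eosinophil markers, 5 rose in promyelocytes relative to LSK cells (list median 3.37), beside 1.61% of all genes. In myelocytes relative to promyelocytes 3 of these markers fell and 1 rose (median -2.03), beside 9.87% and 7.61% of all genes. Their mean was 4.54 to 4.64 on the LSK arrays, 5.39 to 8.16 on the promyelocyte arrays, 5.29 to 5.56 on the myelocyte arrays and 5.08 to 5.79 on the granulocyte arrays. It was lowest among the promyelocyte arrays on array 2, where Irf8 was also lowest, and Epx, Prg3, Ear6, Il5ra and Ccr3 were at or under the dim level in LSK cells. Adgre1 was the 1 monocyte marker at or under the dim level in LSK cells. The part of these cells in the level of Irf8 was not tested.

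**Figure D2:**
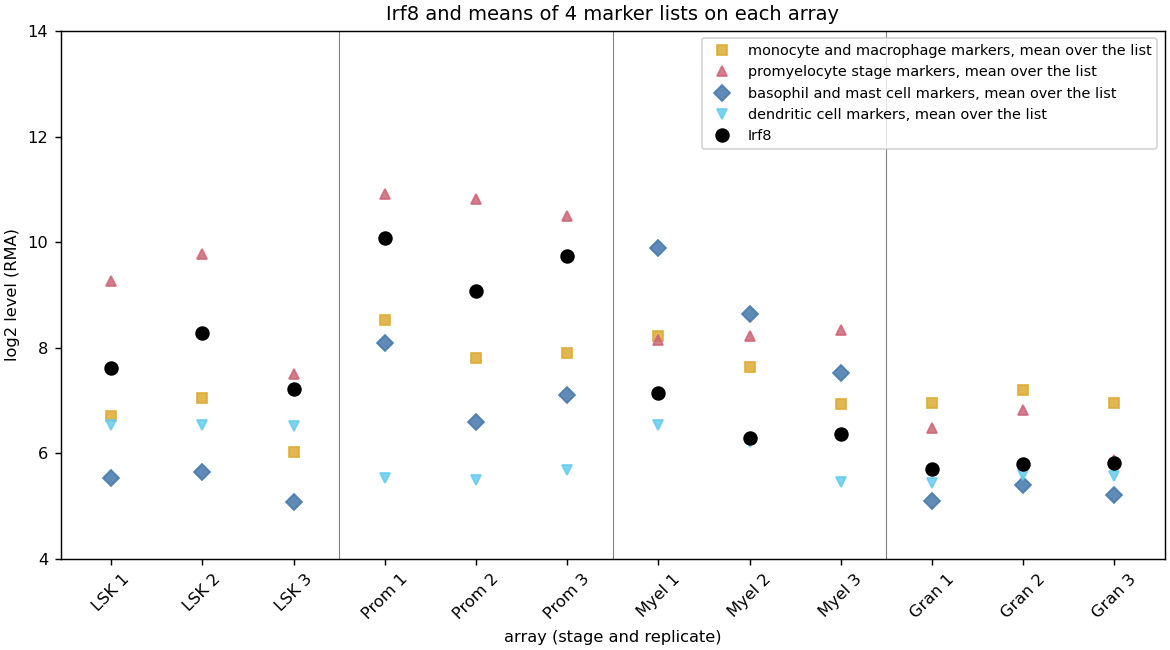
Log2 level of Irf8 (black) and mean log2 level of 4 marker lists (colours) on each of the 12 arrays, ordered by stage and replicate. Irf8 and the monocyte and macrophage list both had their highest value on Prom 1. Irf8, this list and the basophil and mast cell list stood highest in their stage on LSK 2, Prom 1 and Myel 1. Among the granulocyte arrays Irf8 was highest on Gran 3 and both lists on Gran 2. The promyelocyte list was also highest in its stage on LSK 2 and Prom 1, but on Myel 3 among the myelocyte arrays. Only changes along the axis can be compared between the series.

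Irf4, the relative of Irf8 that acts in B cells, plasma cells and dendritic cells, was dim. Its stage means were 4.20 ± 0.25 in LSK cells, 3.90 ± 0.28 in promyelocytes, 4.48 ± 0.24 in myelocytes and 4.05 ± 0.39 in granulocytes. The highest single value was 4.75, on myelocyte array 1, and no stage mean exceeded the dim level. A difference of 0.58 ± 0.21 between myelocytes and promyelocytes (limma adjusted p = 0.0453) was one between dim values.

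Irf7, the factor that amplifies the production of type I interferon, had a pattern close to the opposite of that of Irf8. It measured 6.75, 6.96 and 7.21 on the LSK arrays, 4.81, 5.46 and 4.73 on the promyelocyte arrays, 7.76, 7.71 and 7.31 on the myelocyte arrays and 8.55, 8.79 and 9.19 on the granulocyte arrays. No 2 stages overlapped. Irf7 fell by 1.97 ± 0.22 in promyelocytes relative to LSK cells (3.93-fold, limma adjusted p = 3.26e-05). It rose by 2.59 ± 0.22 in myelocytes relative to promyelocytes (6.04-fold, adjusted p = 1.24e-07) and by a further 1.25 ± 0.22 in granulocytes relative to myelocytes (2.38-fold, adjusted p = 0.000496). Granulocytes therefore stood above promyelocytes by 3.84 ± 0.22 (14.4-fold, adjusted p = 6.74e-10) and above LSK cells by 1.87 ± 0.22 (3.66-fold, adjusted p = 2e-06). In order from high to low the stages were granulocytes, myelocytes, LSK cells and promyelocytes, and each neighbour in that order differed from the next at an adjusted p under 0.05, the gap between myelocytes and LSK cells being 0.62 ± 0.22 (adjusted p = 0.0334, and at most 0.131 over the alternatives), which is under 2-fold. Irf7 was the only member for which all neighbouring stages differed in this way. Its calls were retained under each of the 24 alternatives run.

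Irf7 is abundant in plasmacytoid dendritic cells, so markers of dendritic cells are given beside it. In the mouse those cells carry B220, and an antibody to B220 was among the lineage antibodies of all 4 sorts. How many of those cells remained after sorting was not measured here. The 13 markers averaged 6.52 to 6.53 on the LSK arrays, 5.50 to 5.69 on the promyelocyte arrays, 5.46 to 6.53 on the myelocyte arrays and 5.43 to 5.58 on the granulocyte arrays. In granulocytes relative to promyelocytes, 2 of the 13 rose and 3 fell (list median 0.24), beside 10.1% of all genes higher and 16.3% lower. Single markers differed from the mean, as Itgax, an integrin chain of dendritic and other myeloid cells, averaged 5.39 in LSK cells, 5.00 in promyelocytes, 5.87 in myelocytes and 7.23 in granulocytes. Clec9a, a receptor of conventional dendritic cells, averaged 4.43, 3.80, 5.38 and 5.59 in the same order of stages. Siglech, a surface marker of plasmacytoid dendritic cells, averaged 4.51 in LSK cells, 4.02 in promyelocytes, 4.40 in myelocytes and 4.81 in granulocytes, near or under the dim level. Flt3, which is also on the LSK list, and Bst2, which is also induced by interferon, are among the 13. These 2 and H2-Ab1 were lower in granulocytes than in promyelocytes. Flt3 measured 6.59, 7.69 and 6.49 on the promyelocyte arrays and 4.87, 4.79 and 4.89 on the granulocyte arrays. Bst2 measured 7.84, 8.19 and 7.46, then 6.12, 6.51 and 6.34. H2-Ab1 measured 7.67, 7.46 and 8.10, then 6.00, 6.66 and 6.10. The part of these cells in the level of Irf7 was not tested.

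Irf9, the DNA-binding subunit of the complex that answers type I interferon, had the same order of stages as Irf7 and a smaller span. Its values were 7.48, 7.22 and 7.78 on the LSK arrays, 6.78, 7.12 and 6.41 on the promyelocyte arrays, 7.80, 8.00 and 7.63 on the myelocyte arrays and 8.44, 8.71 and 8.45 on the granulocyte arrays. The granulocyte arrays lay above all others, the promyelocyte arrays lay below all others, and the LSK and myelocyte arrays overlapped. Irf9 rose by 1.04 ± 0.19 in myelocytes relative to promyelocytes (2.05-fold, limma adjusted p = 0.000393). This value was close to the 2-fold limit and was 0.86 without promyelocyte array 3, 0.94 without myelocyte array 2 and 0.97 with the arrays centred on their medians. It rose by 1.76 ± 0.19 in granulocytes relative to promyelocytes (3.40-fold, adjusted p = 9.85e-07). Relative to LSK cells it rose by 1.04 ± 0.19 in granulocytes (2.06-fold, adjusted p = 0.000247), or by 0.90 without LSK array 2 and 0.95 without granulocyte array 2, both under 2-fold. Its difference of -0.72 ± 0.19 between promyelocytes and LSK cells had an adjusted p of 0.0195 and was under 2-fold.

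Irf1 and Irf2, the activator and its antagonist, were both lowest in promyelocytes and highest in granulocytes. Irf2 measured 8.45, 8.09 and 8.65 on the LSK arrays, 7.29, 6.93 and 7.11 on the promyelocyte arrays, 8.73, 8.64 and 8.74 on the myelocyte arrays and 9.42, 9.09 and 9.31 on the granulocyte arrays. All promyelocyte arrays lay below those of every other stage, and the LSK and myelocyte arrays overlapped. Irf2 fell by 1.28 ± 0.16 in promyelocytes relative to LSK cells (2.44-fold, limma adjusted p = 9.74e-05) and rose by 1.59 ± 0.16 in myelocytes relative to promyelocytes (3.02-fold, adjusted p = 1.07e-06). It rose by 2.16 ± 0.16 in granulocytes relative to promyelocytes (4.48-fold, adjusted p = 1.61e-08). Irf2 is among the predicted miRNA targets that the study selected for a difference between promyelocytes and granulocytes on these same arrays, so this last value is not independent evidence of its direction. The differences of 0.57 ± 0.16 between granulocytes and myelocytes (adjusted p = 0.0183) and of 0.88 ± 0.16 between granulocytes and LSK cells (adjusted p = 0.000256) were under 2-fold.

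Irf1 changed over a narrower range. It measured 8.45, 8.48 and 8.49 on the LSK arrays, 7.52, 7.81 and 8.06 on the promyelocyte arrays, 8.43, 8.41 and 8.17 on the myelocyte arrays and 9.17, 9.31 and 9.21 on the granulocyte arrays. The granulocyte arrays lay above all others, and the promyelocyte arrays lay below all others. Irf1 rose by 1.43 ± 0.15 in granulocytes relative to promyelocytes (2.70-fold, limma adjusted p = 6.09e-07). At the single steps its differences were under 2-fold, with -0.67 ± 0.15 between promyelocytes and LSK cells (adjusted p = 0.00634), 0.54 ± 0.15 between myelocytes and promyelocytes (adjusted p = 0.00914) and 0.89 ± 0.15 between granulocytes and myelocytes (adjusted p = 0.000357). Myelocytes and LSK cells differed by -0.14, with a 95% interval of -0.45 to 0.18.

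A second array row of Irf1 gave another picture. Its stage means were 6.11 ± 0.55 in LSK cells, 5.36 in promyelocytes, 5.41 in myelocytes and 5.69 in granulocytes, and its highest value was on an LSK array. Granulocytes and promyelocytes differed on it by 0.33 ± 0.23 (limma adjusted p = 0.258, fitted with all 21640 rows of a single symbol), and granulocytes and LSK cells by -0.42 ± 0.23 (adjusted p = 0.142). With both rows averaged, the difference of Irf1 between granulocytes and promyelocytes was 0.88, under 2-fold. The probe table does not say which part of the transcript either row covers, so the rise of Irf1 in granulocytes holds for the brighter row. It was the 1 member with several rows.

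Irf3, which is activated by phosphorylation when viral nucleic acid is sensed, varied little between the stages. Its values were 6.97, 7.05 and 7.20 on the LSK arrays, 7.06, 7.26 and 6.93 on the promyelocyte arrays, 6.89, 6.65 and 6.88 on the myelocyte arrays and 6.88, 6.82 and 7.18 on the granulocyte arrays. The myelocyte arrays lay just below the LSK and promyelocyte arrays, and the other pairs of stages overlapped. The 95% intervals of its 6 differences lay between -0.60 and 0.47, so that a 2-fold difference was outside each of them. The span of 0.28 between its highest and lowest stage was larger than that of only 15% of all genes.

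Irf5, a factor downstream of Toll-like receptors in macrophages and dendritic cells, was highest in granulocytes by a small margin. It measured 6.39, 6.62 and 6.85 on the LSK arrays, 6.64, 5.86 and 6.57 on the promyelocyte arrays, 6.68, 6.41 and 5.44 on the myelocyte arrays and 7.16, 7.34 and 7.10 on the granulocyte arrays. The granulocyte arrays lay above all others, and the earlier stages overlapped. Irf5 rose by 1.02 ± 0.27 in granulocytes relative to myelocytes (2.03-fold, limma adjusted p = 0.0123). This call rested on single arrays, since the difference was 0.65 without myelocyte array 3 (adjusted p = 0.0577) and 0.96 without granulocyte array 2. On myelocyte array 3, where Irf5 was lowest, the monocyte and dendritic cell lists were also the lowest of the 3 myelocyte arrays, at 6.94 and 5.46, and their part in the result was not tested. Granulocytes and promyelocytes differed by 0.84 ± 0.27 (limma adjusted p = 0.0175), which is under 2-fold. Granulocytes and LSK cells differed by 0.58 ± 0.27 (adjusted p = 0.0854), and no neighbouring stages in the order of its means differed at an adjusted p under 0.05.

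**Figure D3:**
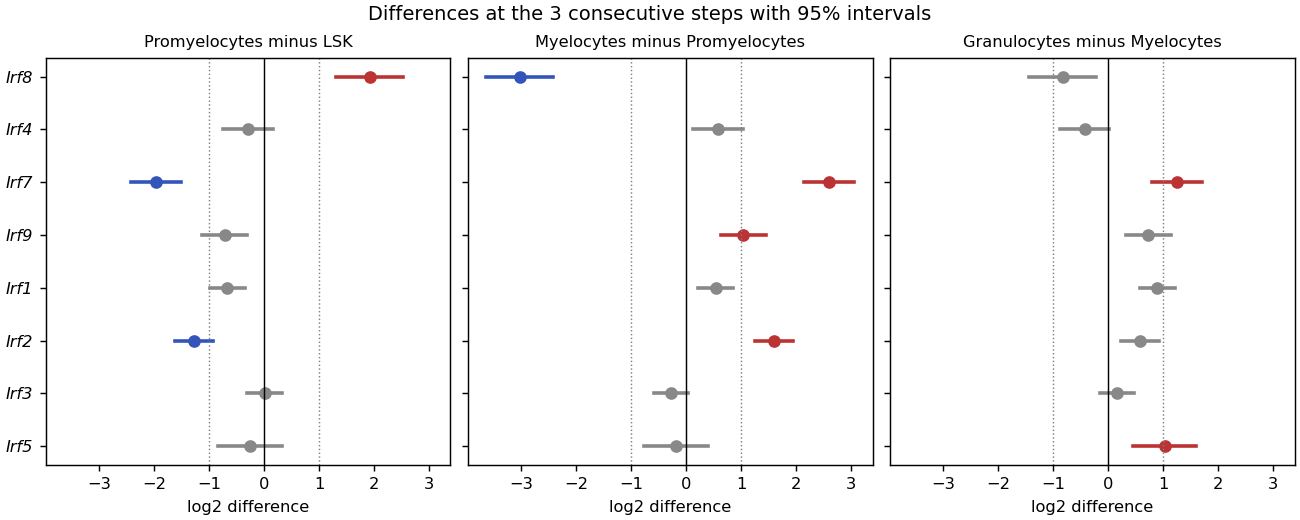
Log2 differences of the IRF genes at the 3 consecutive steps, later minus earlier stage, with 95% intervals from limma. Red marks genes that rose and blue genes that fell (adjusted p under 0.05 and at least 2-fold, dotted lines), and grey marks the rest; Irf8 and Irf7 moved in opposite directions at the first step (1.92 and -1.97) and at the second (-3.03 and 2.59).

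Counts of members called at each step were read against the share of all genes called. In promyelocytes relative to LSK cells, 1 of 8 members rose (Irf8) and 2 fell (Irf2 and Irf7), while 1.61% of all genes were called higher and 2.75% lower, 4.36% in all. In myelocytes relative to promyelocytes, 3 rose (Irf2, Irf7 and Irf9) and 1 fell (Irf8), while 7.61% of all genes were called higher and 9.87% lower, 17.5% in all. In granulocytes relative to myelocytes, 2 rose (Irf5 and Irf7), while 2.35% of all genes were called higher and 5.96% lower, 8.31% in all. No member fell by limma at that last step, although Irf8 had an unadjusted p of 0.0112. At an adjusted p under 0.05 with any fold, 5, 6 and 5 members differed at these 3 steps, beside 13%, 34.6% and 21.9% of all genes.

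Over longer distances, granulocytes set against promyelocytes had 4 members higher (Irf1, Irf2, Irf7 and Irf9) and 1 lower (Irf8), while 10.1% of all genes were higher and 16.3% lower, 26.4% in all. Set against LSK cells, myelocytes had 1 member lower, Irf8, while 7.74% of all genes were higher and 10.8% lower, 18.5% in all, and Irf7 was higher by less than 2-fold. Granulocytes set against LSK cells had 2 members higher (Irf7 and Irf9) and 1 lower (Irf8), while 9.59% of all genes were higher and 16.5% lower, 26.1% in all. With any fold, 6, 2 and 5 members differed in these 3 comparisons, beside 49.8%, 36.4% and 51.9% of all genes. The median difference of the 8 members was -0.48 in promyelocytes relative to LSK cells (0.04 over all genes), 0.56 in myelocytes relative to promyelocytes (0.01) and 0.65 in granulocytes relative to myelocytes (0.09). The 6 comparisons share arrays, so their counts are not independent of each other. With each array centred on its 75th percentile the median of all genes moved up by as much as 0.22, and the directions of Irf1, Irf2, Irf7, Irf8 and Irf9 named here were the same under each of the 4 scalings tried.

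Likeness between profiles was measured as the root mean square difference of the 4 stage means after each gene was centred on its own mean. Among the members, Irf1 and Irf9 were the closest (0.21 on the log2 scale), followed by Irf2 and Irf9 (0.23) and by Irf1 and Irf5 (0.27). Irf7 and Irf8 were the least alike (2.83). Among 9579 named genes that differed between stages and were above the dim level, the nearest to Irf7 were Gabbr1, a subunit of the GABA type B receptor (0.12), and Ltb, which encodes lymphotoxin beta (0.15), with Zfp831 next (0.23). Nearest to Irf8 were Mt1, a metallothionein (0.18), Tmem97 (0.20) and Sdf2l1, a protein of the endoplasmic reticulum (0.24). The genes closest to Irf9 included Jak1, the kinase of interferon receptors (0.045), behind Inpp5k (0.037) and Ncoa3 (0.039). For Irf2 they were Mob3a (0.09), Map4k4 (0.10) and Fam102a (0.10), for Irf1 Rnf44 (0.05), Arrb1 (0.06) and Klhl24 (0.06), and for Irf5 Pink1 (0.05), Trp53i13 (0.09) and Polr1a (0.10). With 4 stages to match, a small difference describes a shared shape only.

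The interferon genes themselves were at or near the dim level. Of 5 measured, Ifnb1, Ifna4 and Ifne were dim in every stage, Ifng was above it only in granulocytes (4.61) and Ifna2 averaged 4.69 in LSK cells, 4.63 in promyelocytes, 4.79 in myelocytes and 5.22 in granulocytes. None was called by limma in the 6 comparisons. At an unadjusted p under 0.05 and any fold, between 0 and 3 of the 5 were higher in a comparison, with differences under 2-fold. The 3 were in granulocytes relative to LSK cells, and all 3 also had a limma adjusted p under 0.05. In granulocytes relative to promyelocytes 1 had an adjusted p under 0.05.

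Receptors, kinases and Stat partners of the interferon pathway included several that stood higher in the later stages. Of 10 measured, 3 rose in myelocytes relative to promyelocytes, 6 rose in granulocytes relative to promyelocytes and 4 rose in granulocytes relative to LSK cells, beside 7.61%, 10.1% and 9.59% of all genes. None of the 10 fell by limma in these comparisons with all arrays. At an adjusted p under 0.05 with any fold 1, 1 and 0 were lower, the same counts as at an unadjusted p. Ifnlr1, the specific chain of the receptor for interferon lambda, measured 4.47, 4.69 and 4.43 on the LSK arrays, 4.93, 4.48 and 5.02 on the promyelocyte arrays, 9.09, 9.09 and 8.89 on the myelocyte arrays and 9.31, 9.32 and 9.40 on the granulocyte arrays. It was near the dim level in the 2 early stages and bright in the 2 late ones, with a rise of 4.21 ± 0.15 in myelocytes relative to promyelocytes (18.5-fold, limma adjusted p = 1.9e-11). Il10rb, the other chain of that receptor, rose by 1.30 ± 0.18 in granulocytes relative to LSK cells (2.46-fold), and Ifngr2, a chain of the interferon gamma receptor, rose by 2.65 ± 0.13 (6.29-fold). Jak1 rose by 1.78 ± 0.14 in granulocytes relative to promyelocytes (3.42-fold, adjusted p = 3.93e-08). At the step from promyelocytes to myelocytes the calls of Jak1 (1.12) and Il10rb (1.09) were lost with quantile (0.89 and 0.96) and loess (0.62 and 0.80) normalization and without promyelocyte array 3 (0.99 and 0.84), which left 1 of the 10 higher and 1 lower. The lower one was Ifngr1, the ligand-binding chain of the interferon gamma receptor, which averaged 9.14 in myelocytes and 10.1 in promyelocytes (-0.91 ± 0.22, adjusted p = 0.00384, under 2-fold) and fell by 1.08 without that array (adjusted p = 0.00174). Il10rb against LSK cells was 0.93 with quantile normalization.

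The sensors and adaptors upstream of Irf3, Irf5 and Irf7 were split. Of 19 measured, 6 rose and 6 fell in granulocytes relative to promyelocytes (list median 0.28, all genes 0.13), beside 10.1% of all genes higher and 16.3% lower. Ddx58, a sensor of viral RNA, followed the shape of Irf7, with 8.07, 8.04 and 8.65 on the LSK arrays, 6.02, 6.46 and 6.03 on the promyelocyte arrays, 8.82, 8.81 and 8.75 on the myelocyte arrays and 9.29, 9.42 and 9.44 on the granulocyte arrays. It fell by 2.08 ± 0.17 in promyelocytes relative to LSK cells (4.24-fold, limma adjusted p = 4.57e-06) and rose by 2.63 ± 0.17 in myelocytes relative to promyelocytes (6.17-fold). Tlr7, an endosomal receptor for single-stranded RNA, averaged a dim 3.56 in promyelocytes and 7.17 in myelocytes. Tlr8, its relative, rose by 2.29 ± 0.26 in granulocytes relative to myelocytes (4.91-fold). Tlr4, the endotoxin receptor, rose by 3.05 ± 0.24 in granulocytes relative to LSK cells (8.27-fold) and Myd88, the adaptor that most Toll-like receptors share, rose by 2.05 ± 0.15 (4.13-fold).

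Other genes of this list fell at the later stages. Sting1, the adaptor of DNA sensing, measured 9.23, 8.99 and 9.22 on the LSK arrays, 9.45, 9.45 and 8.26 on the promyelocyte arrays, 7.73, 7.24 and 6.19 on the myelocyte arrays and 6.77, 7.30 and 6.82 on the granulocyte arrays. It was high in the 2 early stages and low in the 2 late ones, with no overlap, and fell by 2.18 ± 0.34 in granulocytes relative to LSK cells (4.54-fold, limma adjusted p = 5.8e-05). Cgas, the DNA sensor that acts before it, averaged a dim 3.81 in granulocytes and 5.95 in promyelocytes. Mavs, the adaptor that Ddx58 signals through, fell by 1.65 ± 0.21 in myelocytes relative to promyelocytes (3.14-fold, adjusted p = 1.31e-05). Ikbke, a kinase of Irf3 and Irf7, fell by 1.46 ± 0.14 in granulocytes relative to promyelocytes (2.74-fold), and Irak1, a kinase on the path to Irf7, fell by 1.37 ± 0.15 in granulocytes relative to LSK cells (2.59-fold). At the early step Unc93b1, the chaperone of endosomal Toll-like receptors, rose by 1.09 ± 0.19 in promyelocytes relative to LSK cells (2.12-fold), a call that was lost without LSK array 1 (0.98) or promyelocyte array 1 (0.86).

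Among 13 measured binding partners and regulators of IRF proteins, Spi1 and Bcl6 rose and Etv6 and Tcf3 fell in granulocytes relative to promyelocytes, and the other 9 were not called. The 4 called of 13 are a share close to the 26.4% of all genes called. Spi1 encodes PU.1, the ETS factor with which Irf8 and Irf4 bind DNA, and it was 8.04, 8.62 and 8.50 on the LSK arrays, 9.00, 8.60 and 8.52 on the promyelocyte arrays, 10.19, 10.05 and 9.92 on the myelocyte arrays and 10.39, 10.58 and 10.46 on the granulocyte arrays. It rose by 1.35 ± 0.17 in myelocytes relative to promyelocytes (2.55-fold, limma adjusted p = 1.19e-05), the step at which Irf8 fell. Bcl6, a transcriptional repressor that is a target of Irf8 in B cells, averaged 5.85 in LSK cells, 5.64 in promyelocytes, 8.75 in myelocytes and 9.90 in granulocytes, a rise of 4.25 ± 0.14 in granulocytes relative to promyelocytes (19.1-fold, adjusted p = 4.3e-12). Etv6, a repressor of the ETS family, averaged 8.21 in granulocytes and 9.28 in promyelocytes, and Tcf3, the E protein of lymphoid cells, 7.05 in granulocytes and 8.19 in promyelocytes. With each array centred on its 75th percentile these last 2 differences were under 2-fold (-0.85 for Etv6 and -0.91 for Tcf3).

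Interferon-induced genes, many of which are targets of the complex that holds Irf9 and of Irf7, were lowest in promyelocytes and highest in granulocytes in most cases. Of 27 measured, 20 (74.1%) had their lowest stage mean in promyelocytes, as did 26.2% of all genes tested, and 19 (70.4%) had their highest in granulocytes, as did 46% of all genes tested. Among the genes that differed by the F test these shares were 24.9% and 35.5%. In promyelocytes relative to LSK cells 8 of the 27 fell, beside 2.75% of all genes, and none rose by limma (0 at an unadjusted p under 0.05; list median -0.62). In myelocytes relative to promyelocytes 9 rose and 2 fell (median 0.76), beside 7.61% and 9.87% of all genes. In granulocytes relative to myelocytes 11 rose (median 0.89), beside 2.35% of all genes, and none fell by limma, although 2 were lower at an adjusted p under 0.05 by less than 2-fold (2 also at an unadjusted p under 0.05). Granulocytes relative to promyelocytes had 18 higher and 2 lower (median 1.94, all genes 0.13), beside 10.1% of all genes higher and 16.3% lower. Leaving out each array in turn gave 18 higher throughout in this last comparison and 8 to 10 lower in the first.

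Rtp4, a chaperone of receptor trafficking, had 7.67, 7.89 and 8.63 on the LSK arrays, 4.15, 5.43 and 4.53 on the promyelocyte arrays, 6.62, 7.26 and 6.64 on the myelocyte arrays and 8.89, 9.72 and 9.38 on the granulocyte arrays. No 2 stages overlapped, and it fell by 3.36 ± 0.32 in promyelocytes relative to LSK cells (10.3-fold, limma adjusted p = 1.04e-05) and rose by 4.63 ± 0.32 in granulocytes relative to promyelocytes (24.7-fold, adjusted p = 6.38e-09). Oas3, an enzyme of antiviral oligoadenylate synthesis, was 6.03, 6.37 and 6.73 on the LSK arrays, 4.76, 5.33 and 4.59 on the promyelocyte arrays, 7.65, 8.05 and 7.81 on the myelocyte arrays and 9.23, 9.37 and 9.78 on the granulocyte arrays. It rose by 4.57 ± 0.22 in granulocytes relative to promyelocytes (23.7-fold, adjusted p = 1.39e-10), and its relative Oas2 rose by 3.22 ± 0.23 in myelocytes relative to promyelocytes (9.34-fold). Oasl2 and Rsad2, an antiviral enzyme also called viperin, rose by 2.70 ± 0.23 (6.51-fold) and 2.47 ± 0.15 (5.56-fold) in granulocytes relative to myelocytes. Samd9l averaged a dim 4.40 in promyelocytes and 9.13 in myelocytes.

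Some genes of the list did not follow this pattern, as 5 of the 27 had their lowest mean in granulocytes and 2 in LSK cells. The 5 were Ifit2, Mx1, Mx2, Bst2 and Lgals3bp. Ifit2 averaged 5.83 in granulocytes and 6.58 in myelocytes, and Mx1 a dim 4.13 in granulocytes and 4.70 in myelocytes; these are the 2 genes that were lower at that step by less than 2-fold. Mx2 was dim in every stage. The 2 that fell in granulocytes relative to promyelocytes were Lgals3bp, a secreted glycoprotein, and Bst2, the tetherin that retains virus at the cell surface. Bst2 averaged 6.33 in granulocytes and 7.83 in promyelocytes, a fall of 1.50 ± 0.18 (2.83-fold, limma adjusted p = 2.44e-06). Lgals3bp averaged 6.11 in granulocytes and 8.52 in promyelocytes, a fall of 2.41 ± 0.46 (5.33-fold, adjusted p = 0.000363). Its fall in myelocytes relative to promyelocytes (1.59 ± 0.46) was lost without promyelocyte array 2 (adjusted p = 0.078) or myelocyte array 3 (adjusted p = 0.0737).

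**Figure D4:**
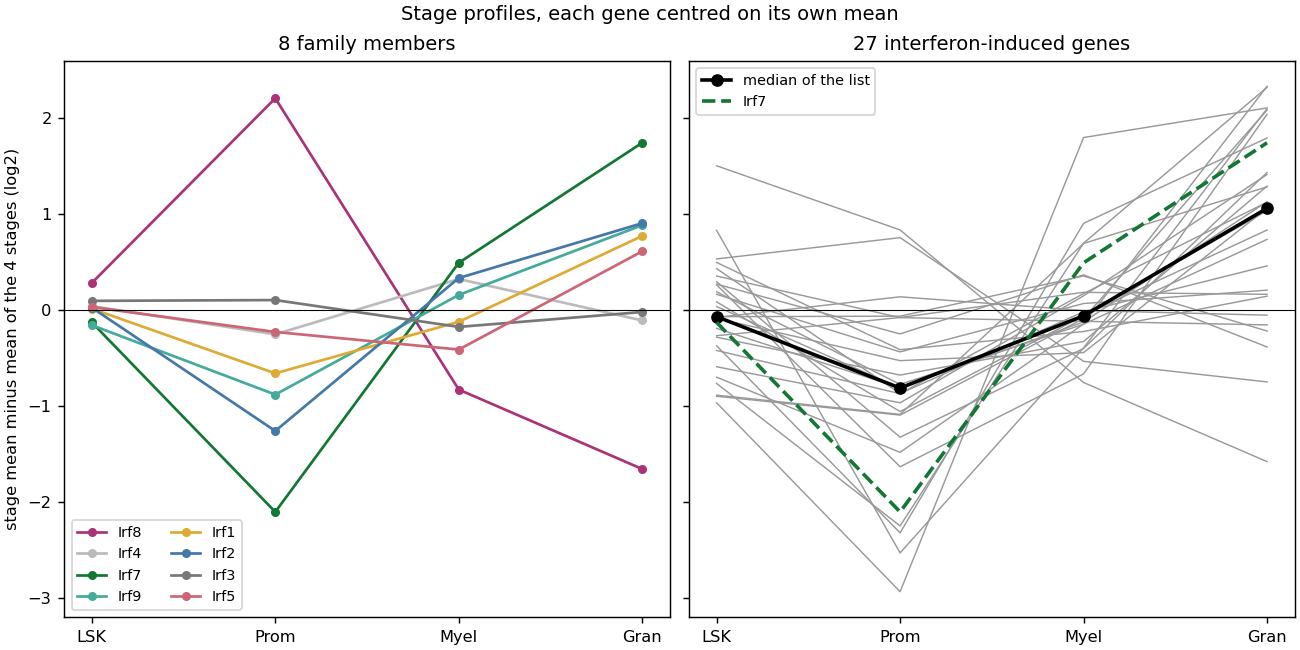
Stage means (log2) of the 8 IRF genes (left) and of 27 interferon-induced genes (right), each gene centred on its own mean over the 4 stages; Prom, Myel and Gran are promyelocytes, myelocytes and granulocytes. Grey lines are single genes, the black line is their median at each stage and the dashed line repeats Irf7; 20 of the 27 were lowest in promyelocytes and 19 were highest in granulocytes.

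Antigen processing genes and others often tied to Irf1 did not follow that pattern. Of 15 measured, 3 fell and none rose in granulocytes relative to promyelocytes by limma (list median 0.24), beside 16.3% of all genes lower and 10.1% higher. By less than 2-fold, 2 were higher at an adjusted p under 0.05, and 5 were higher at an unadjusted p under 0.05. Gbp3, a guanylate-binding protein induced by interferon gamma, measured 7.91, 7.80 and 7.65 on the LSK arrays, 8.72, 8.54 and 8.31 on the promyelocyte arrays, 5.59, 5.41 and 5.25 on the myelocyte arrays and 4.92, 5.21 and 4.78 on the granulocyte arrays. It was high in the early stages and fell by 3.11 ± 0.16 in myelocytes relative to promyelocytes (8.61-fold, adjusted p = 7.75e-10), the step at which Irf1 was higher by 0.54. Psmb10 and Psmb8, catalytic subunits of the immunoproteasome, fell by 1.45 ± 0.20 (2.72-fold) and 1.23 ± 0.17 (2.34-fold) at the same step. Gbp7, another guanylate-binding protein, averaged 8.15 in granulocytes and 6.96 in myelocytes and was the 1 gene of the list that rose between them (2.28-fold, adjusted p = 0.000478).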

How the data were processed

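Total RNA of LSK cells, promyelocytes, myelocytes and granulocytes (3 arrays each) was hybridised by the authors to 1-colour Affymetrix Mouse Gene 1.0 ST arrays. The values used were the deposited log2 values, made by the authors with justRMA (background correction, quantile normalization, median polish), with no further normalization. Quantile normalization makes the arrays' distributions alike, so differences are relative to the bulk of genes. Array medians were 4.96 to 5.12 and within-group correlations over all rows 0.964 to 0.984. Of 34760 rows, the 21640 with 1 symbol in the platform's probe table were used, and the highest-mean row stood for each of 19937 genes.

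All genes were tested in 1 fit of 4 group means (lmFit and eBayes, limma 3.58.1, R 4.3.3; 8 residual and 7.02 prior degrees of freedom), tested beforehand on simulated data. The number of arrays limits the precision (median within-group SD 0.21). The sample labels and the study's methods call the 3 arrays of each stage biological replicates, without stating separate animals. The p-values therefore cover the spread among these arrays, part of which may be technical. Replicate numbers paired promyelocytes and myelocytes only, where deviations of same-numbered arrays correlated at 0.12 to 0.20 in 3 of 3 pairs, a hint from the data and not from the labels.

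The members were taken by gene symbol, and the lists were written by function and not by how the genes moved. Both choices were made with earlier results of these data known. Named were all members, their other rows, up to 3 called genes of each list in each direction and comparison, and the 3 nearest profiles of each member that differed among stages by at least 2-fold, leaving out predicted genes; the marker genes given beside Irf7 and Irf8 and the interferon genes were named after their values were seen. List genes with no row of a single symbol were not analysed here. Alternatives were other scalings, normalizations, filters, rows, thresholds and fits, the replicate block and each array left out. The planned comparison of protein sequences was not run.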

Additional observations from a re-analysis of the deposited data

How the results depend on the processing

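The counts of members called held within 1.5 times under the other scalings, normalizations, filters, row choices and fits. Without the 2-fold limit they were 5 in promyelocytes against LSK cells, 5 in granulocytes against myelocytes, 2 in myelocytes against LSK cells and 5 in granulocytes against LSK cells. Leaving out each array in turn gave 3 in promyelocytes against LSK cells, 3 to 4 in myelocytes against promyelocytes, 1 to 2 in granulocytes against myelocytes, 5 in granulocytes against promyelocytes, 0 to 1 in myelocytes against LSK cells, 2 to 4 in granulocytes against LSK cells and 5 to 6 in the F test. The replicate block, which fits the replicate number as a term, left 4 members called in myelocytes against promyelocytes and changed no call of a member in any comparison. Over all single differences and alternatives, 11 calls were lost, those of Irf1, Irf5, Irf8 and Irf9 given beside their values. Calls were gained in 17 cases, most of them in the setting without the 2-fold limit, where the differences themselves were unchanged. Gains with 75th percentile centring were Irf1 in granulocytes against myelocytes (1.06), Irf5 in granulocytes against promyelocytes (1.06; 1.18 with quantile and 1.16 with loess normalization) and Irf2 in granulocytes against LSK cells (1.09).

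Signs turned only in Irf3, Irf4 and Irf5, in differences that were never called. Irf3 in promyelocytes against LSK cells was -6e-04 with 75th percentile centring, -0.038 with quantile, -0.024 with loess normalization, and -0.082 to 0.087 as arrays were left out. Irf3 in granulocytes against promyelocytes was 0.099, 0.26 and 0.15 under those 3 scalings, and against LSK cells 0.099, 0.22 and 0.13. Irf4 in granulocytes was 0.065 against LSK cells with 75th percentile centring, and against promyelocytes -0.029 with quantile, -0.093 with loess normalization and -0.082 to 0.30 as arrays were left out. Irf5 in myelocytes against promyelocytes was 0.011 with loess normalization and -0.43 to 0.19 as arrays were left out. The cause was not tested. With 75th percentile centring 41.7% of calls in granulocytes against myelocytes were higher (28.3% as deposited), 48.3% (38.4%) against promyelocytes and 46.7% (36.7%) against LSK cells. Median centring put 46.8% of calls in promyelocytes against LSK cells higher (36.9%). Irf4 had no value with dim genes filtered out, and the F test none in fits of 2 groups.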
